A study of Mus musculus with 6 samples.

Results

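The data describe 10 transcripts that blood cells are known for, taken from a table of 34250 gene rows by their exact symbols. The erythroid set held 5 genes, the adult alpha globins Hba-a1 and Hba-a2, the adult beta globins Hbb-bs and Hbb-bt, and Alas2. The neutrophil set held the other 5, S100a8, S100a9, Ngp, Camp and Lcn2. Each of the 10 symbols matched 1 row. The 6 libraries were made from wild-type (WT) C57BL/6 mouse brain and are labelled as oligodendrocyte progenitor cells (OPCs, the glial precursors of myelin-forming cells). Of these, 3 were controls and 3 had received fibrinogen, the clotting protein of blood plasma, which the table's column names give as 2.5 mg. The study's methods describe cortical OPCs isolated from newborn pups and grown in culture for weeks before fibrinogen or vehicle was added, with shaking steps meant to remove microglia, and the columns of the table number the libraries as mice. No exposure time for these libraries was given in the sources used here. The methods say in general terms that experiments were repeated independently, but neither they nor the labels say how the libraries of a group were divided among cultures or mice, and the p-values below rest on library-to-library spread that may be partly technical.

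Red cells carry oxygen on hemoglobin, a tetramer of alpha and beta globin chains that each hold a heme, and Alas2 is the erythroid form of the enzyme that starts heme synthesis. Young red cells lose their nucleus but keep globin mRNA for a time, so globin reads are a usual sign of blood in a tissue sample. Neutrophils fill their granules and cytosol with defence proteins while they mature in the bone marrow. S100a8 and S100a9 pair to form calprotectin, Ngp and Camp encode a granule protein and the antimicrobial cathelicidin, and Lcn2 encodes lipocalin 2, which binds the iron carriers of bacteria. Some of these genes are also used outside the blood, Lcn2 by reactive astrocytes and by endothelium among others.

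Each library held 36670999 to 44448983 reads assigned to genes, and 14237 to 14839 genes reached 1 RPKM (reads normalised to exon length and library total). Control replicate 3 stood apart from the other controls on the second principal component, which held 22.6% of the variance, while the first, with 51.4%, separated the groups. The OPC label was read against markers. Summed over 5 genes each, OPC markers gave 18.3 to 30.3 RPKM and neuron markers 851 to 1107 RPKM, so neuron transcripts outweighed OPC transcripts in every library. In bulk RNA, fewer cells of a type and less RNA per cell cannot be told apart.

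To show the genes behind these reads, stretches of the RefSeq promoter sequences (GRCm38.p6) are given, on the strand of the gene and outside the gene's span in the table. Matches to GATAA, the core of the motif bound by erythroid GATA factors, are in capitals. The 250 bases before the RefSeq start of each gene were searched on both strands (the reverse reads TTATC). All 5 erythroid genes held 1 match, against 23% of 27025 mouse promoters of the same length.
Hba-a1, chr11:32283451-32283510, plus strand: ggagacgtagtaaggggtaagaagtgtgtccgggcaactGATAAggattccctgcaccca
Hba-a2, chr11:32296280-32296339, plus strand: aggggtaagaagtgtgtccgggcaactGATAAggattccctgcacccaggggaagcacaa
Hbb-bs, chr7:103828105-103828164, minus strand: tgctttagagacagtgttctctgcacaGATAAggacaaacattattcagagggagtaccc
Hbb-bt, chr7:103814095-103814154, minus strand: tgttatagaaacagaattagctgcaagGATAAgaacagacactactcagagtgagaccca
Alas2, chrX:150547304-150547363, plus strand: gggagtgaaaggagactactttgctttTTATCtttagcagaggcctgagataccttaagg
The alpha globin pair had the same bases around the match, and over 240 aligned bases of their upstream sequence the identity was 100%. The matches are a description of the letters and not of bound sites.

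The neutrophil genes were searched in the same way for TTNNGNAA, the form of site bound by C/EBP factors of the granulocyte lineage. It was found in 4 of the 5 genes, with 1 match in S100a8, 2 in S100a9, 3 in Ngp and 1 in Lcn2, and these letters were not in the window of Camp. The same motif stood in 36.9% of all promoters. The match of Lcn2 lay inside the gene's span in the table and is not shown. Capitals mark the matches on either strand in the others, with 2 of the 3 matches for Ngp and 1 of the 2 for S100a9.
S100a8, chr3:90668918-90668977, plus strand: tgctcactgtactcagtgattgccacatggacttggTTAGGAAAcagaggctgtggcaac
S100a9, chr3:90695818-90695877, minus strand: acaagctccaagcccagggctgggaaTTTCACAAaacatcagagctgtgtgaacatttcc
Ngp, chr9:110419668-110419746, plus strand: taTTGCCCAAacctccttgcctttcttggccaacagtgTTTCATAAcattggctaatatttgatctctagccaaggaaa

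The first question was how much blood-type RNA each group held. Globin reads were few in both groups, whose ranges overlapped. Reads of the 5 neutrophil genes were about as many as globin reads in the controls and nearly missing with fibrinogen. The 4 globin genes together took 6.72, 8.25 and 14.1 RPM (reads scaled to the library total, with no correction for gene length) in control replicates 1 to 3, and fibrinogen replicates 1 to 3 gave 9.82, 6.88 and 7.62. The groups overlapped, and control replicate 3 was the highest library. The 5 neutrophil genes together took 7.71, 8.76 and 21.9 RPM in the controls, and 0.491, 0.270 and 0.534 with fibrinogen. Every control library was above every fibrinogen library. The mean was 12.8 ± 7.92 (SD, n = 3) against 0.432 ± 0.142 (SD, n = 3), 29.6-fold higher in the controls, and 19.1-fold higher without control replicate 3. A wider list of other neutrophil genes, read below, differed far less. Its summed RPM was 8.63, 10.3 and 20.4 in the controls and 6.03, 6.84 and 6.60 with fibrinogen. The mean was 2.02-fold higher in the controls, and 1.46-fold without control replicate 3.

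Set against the globin reads of the same library, there were 115, 106 and 155 neutrophil reads per 100 globin reads in the controls and 5, 3.92 and 7.01 with fibrinogen. This ratio does not depend on library size, and it differed 23.6-fold between the group means, 20.8-fold without control replicate 3. Pooled over 3 libraries, the controls held 1183 globin reads and 1574 neutrophil reads, and the fibrinogen libraries 980 and 52. Of the 1574 neutrophil reads in the controls, 678 were from Lcn2. These sums are descriptions with no test of their own.

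**Figure D1:**
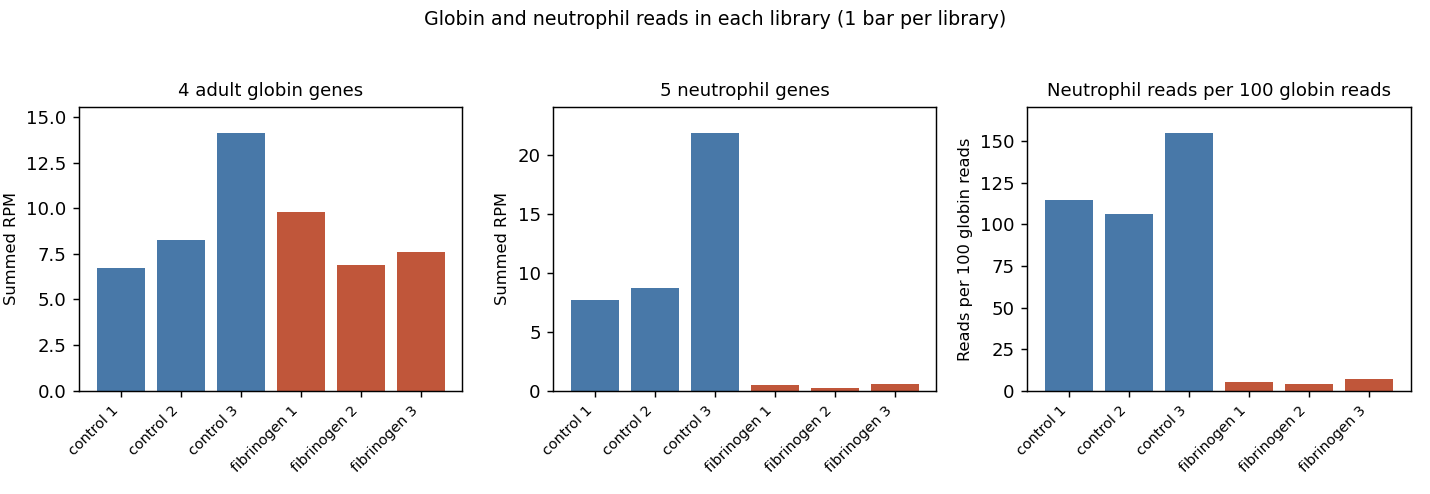
Summed RPM for the 4 adult globin genes (left) and the 5 neutrophil genes (middle), and neutrophil reads per 100 globin reads (right), with 1 bar per library, controls in blue and fibrinogen in red. Globin bars overlap between groups, from 6.72 to 14.1 RPM, while neutrophil bars lie between 7.71 and 21.9 in controls and at most at 0.534 with fibrinogen.

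Among the erythroid genes, Hba-a1 and Hbb-bs carried most reads. Hba-a1 (chr11:32283511-32284465, plus strand, GRCm38 as in the table) encodes an adult alpha chain. It stood at 2.87, 2.71 and 5.21 RPKM in the controls and at 4.10, 3.44 and 3.02 RPKM with fibrinogen. All fibrinogen values lay within the control range. The means were 3.60 ± 1.40 and 3.52 ± 0.543 RPKM (SD, n = 3 each), and the log2 change was 0.01 ± 0.21 (SE) with an adjusted p of 0.983 in limma on log2(RPKM + 1), with Benjamini-Hochberg adjustment over all 14710 genes tested.

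Hbb-bs (chr7:103826534-103828096, minus strand) is an adult beta globin gene. It stood at 5.31, 7.70 and 12.1 RPKM in the controls and at 7.81, 4.57 and 5.56 RPKM with fibrinogen. Control replicate 3 was again the highest, and the groups overlapped. The means were 8.36 ± 3.42 and 5.98 ± 1.66 RPKM, with a log2 change of -0.39 ± 0.28 and an adjusted p of 0.402 in the same limma fit. Without control replicate 3 the change was -0.11. The summed beta RPKM was 1.39 to 2.91 times the summed alpha RPKM over the 6 libraries.

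The globin genes with fewer reads and Alas2 were near the lower limit of what these libraries could count. Hba-a2 (chr11:32296489-32297298, plus strand), the second alpha gene, had 6, 0 and 13 reads in the controls and 4, 8 and 9 with fibrinogen, with no separation of the groups. Alas2 (chrX:150547375-150570638, plus strand) had 24, 21 and 34 reads against 25, 19 and 17, or 0.272 ± 0.0544 and 0.211 ± 0.0629 RPKM. These groups overlapped too. Neither was called (adjusted p = 0.890 for Hba-a2 and 0.592 for Alas2, limma without a filter on low values).

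Hbb-bt (chr7:103812524-103813996, minus strand), the adult beta globin gene with fewer reads, was the exception among the erythroid genes. Its values were 0.223, 0.182 and 0.466 RPKM in the controls and 0.543, 0.576 and 0.967 RPKM with fibrinogen, from 6, 5 and 14 reads against 14, 18 and 28. Every fibrinogen library was above every control library, an order that 11.2% of the 32364 rows with any value showed. Its share of beta globin reads was 3.70%, 2.12% and 3.41% in the controls and 5.98%, 10.3% and 13.7% with fibrinogen. The change did not pass the test, with a log2 change of 0.39 (adjusted p = 0.186, limma without a filter on low values) and of 1.25 on recovered reads (adjusted p = 0.196, limma-voom).

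Globin paralogs share sequence, and how reads that map to several places were treated is not given in the sources used here. In GENCODE vM39 transcripts, 82.7% of the windows of 50 bases in Hba-a1 and 81% of those in Hba-a2 also occurred in another gene, mostly in each other. The shares were 46.3% for Hbb-bs, 45.6% for Hbb-bt and 12.9% for Alas2, which overlaps Apex2, while the 5 neutrophil genes shared 0%. The split between paralogs, and the absolute globin levels, are therefore uncertain.

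Among the neutrophil genes, 4 of 5 were lower in every fibrinogen library than in every control library, an order shown by 12.3% of all rows. S100a9 (chr3:90692632-90695721, minus strand), the larger calprotectin chain, was the most abundant per length at 5.41, 5.89 and 14.9 RPKM in the controls and 0.627, 0.0862 and 0.651 RPKM with fibrinogen. Control replicate 3 was the highest by far, and even the lowest control was well above the highest fibrinogen library. The means were 8.74 ± 5.36 and 0.455 ± 0.319 RPKM (SD, n = 3 each), 19.2-fold higher in the controls and 12.4-fold without control replicate 3. S100a9 fell, with a log2 change of -2.64 ± 0.38 and an adjusted p of 0.0298 in limma over all 32364 rows with any value. In the main fit the adjusted p was 0.00809, but S100a9 met that fit's filter on low values only through the controls.

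Ngp (chr9:110419747-110423012, plus strand), the neutrophilic granule protein, was even among the controls at 1.67, 2.01 and 1.88 RPKM and stood at 0.0446, 0.0736 and 0.119 RPKM with fibrinogen. Here control replicate 3 lay between the other 2 controls. The means were 1.85 ± 0.173 and 0.0792 ± 0.0376 RPKM, 23.4-fold higher in the controls. Ngp fell as well, with a log2 change of -1.40 ± 0.09 and an adjusted p of 0.00371 in limma without the filter. Its adjusted p of 0.000930 in the main fit again rests on a filter met only in the controls.

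Lcn2 (chr2:32384633-32388252, minus strand) stood at 0.947, 1.11 and 4.18 RPKM in the controls and at 0.0416, 0.0515 and 0 RPKM with fibrinogen, from 95, 114 and 469 reads against 4, 6 and 0. The groups were far apart, and control replicate 3 was again the highest control. The mean was 2.08 ± 1.82 against 0.0310 ± 0.0273 RPKM, 67.1-fold higher in the controls and 33.2-fold without control replicate 3. With this spread among the controls the change did not pass the test (log2 change -1.43 ± 0.37, adjusted p = 0.109, limma without a filter). Without control replicate 3 it passed, at a log2 change of -0.98 and an adjusted p of 0.0171.

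S100a8 (chr3:90668978-90670035, plus strand), the smaller calprotectin chain, had 12, 10 and 37 reads in the controls and 0, 0 and 2 with fibrinogen, or 0.452, 0.369 and 1.25 RPKM against 0, 0 and 0.0700 RPKM. No fibrinogen library reached the lowest control. Its change of -0.69 ± 0.19 did not pass the limma test without a filter (adjusted p = 0.123) and did so without control replicate 3 (-0.46, adjusted p = 0.0359). Camp (chr9:109847379-109849617, minus strand) had 2, 2 and 0 reads in the controls and 0 in each fibrinogen library, too few for any comparison.

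**Figure D2:**
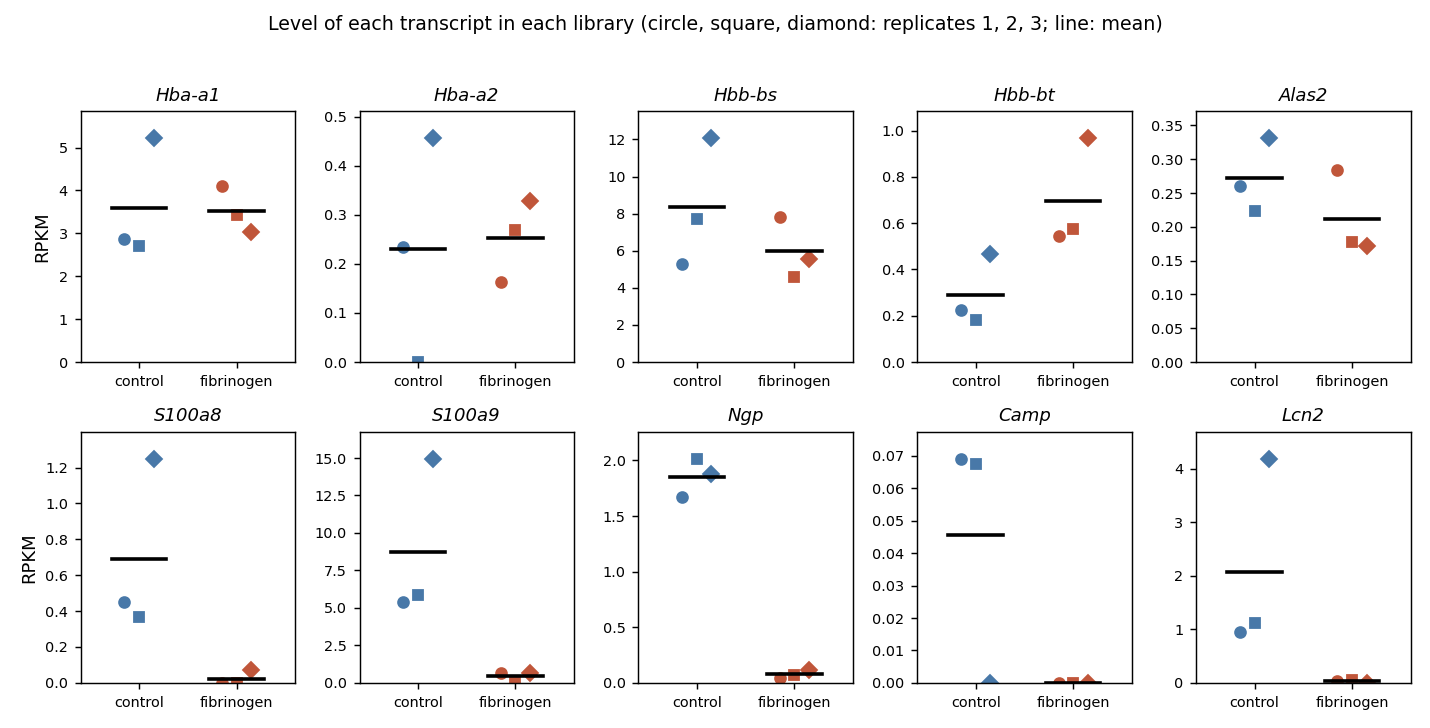
RPKM of each of the 10 transcripts in each library on a linear axis from 0 (controls blue, fibrinogen red; circle, square and diamond are replicates 1, 2 and 3, and the line is the group mean). The groups overlap for 4 of the 5 erythroid genes, Hbb-bt is higher with fibrinogen, and S100a8, S100a9, Ngp and Lcn2 are lower in all 3 fibrinogen libraries.

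Only 4 of the 10 genes had at least 1 RPKM in 3 libraries, the condition for the main test, and S100a9 and Ngp met it only through the controls. Of these 4, Hba-a1 and Hbb-bs were not called and S100a9 and Ngp were called lower. In this test 11.5% of all 14710 genes were called in either direction and 5.62% were called lower. Without the filter, S100a9 and Ngp were again the genes called among the 10, where 2.89% of 32364 genes were called and 1.51% were called lower.

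The log2(RPKM + 1) scale shrinks the change of genes this low, so whole reads were recovered from RPKM and gene length and tested with limma-voom. On that scale the neutrophil changes were of similar size, -4.38 ± 1.20 for S100a8, -4.52 ± 0.94 for S100a9, -4.45 ± 0.56 for Ngp and -6.20 ± 1.82 for Lcn2. The adjusted p values were 0.0491, 0.0172, 0.00177 and 0.0622, so 3 of these 4 passed. Of all 25138 genes with at least 10 reads, 8.56% were called and 4.21% were called lower. S100a8, with 2 fibrinogen reads in all, met this condition only through the controls. Lcn2 and Ngp had 10 and 12 fibrinogen reads in all. Ordered from the most negative change, Lcn2 was 4, S100a9 28, Ngp 30 and S100a8 35 of those genes. The 5 erythroid genes had log2 changes of -0.47 (Hbb-bs) to 1.25 (Hbb-bt), and none was called.

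**Figure D3:**
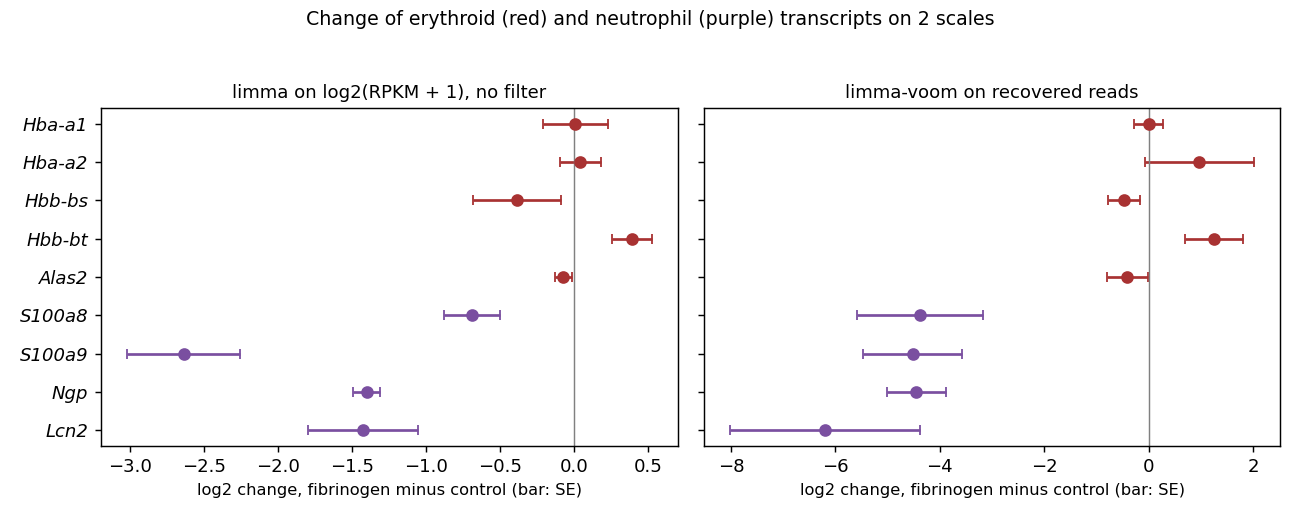
Log2 change, fibrinogen minus control, with its SE (bars) for 9 of the 10 genes, on the log2(RPKM + 1) scale without a filter (left) and from recovered reads with limma-voom (right); Camp had too few reads. Neutrophil genes (purple) lie between -4.38 and -6.20 on the right, while erythroid genes (red) lie between -0.47 and 1.25.

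Counting error alone was small against these differences for the better covered genes. Pooled over the libraries of a group and scaled by their totals, the control to fibrinogen ratio of reads was 20.4 for S100a9 (95% exact interval 14 to 31), 23.1 for Ngp (13 to 45.3), 69.1 for Lcn2 (37.3 to 144.7) and 30.1 for S100a8 (7.96 to 254). Among genes with 1 to 10 reads in a library, 68.2% to 70.6% had an even count. With every 2 reads taken as 1 pair, the intervals were wider, 12 to 37.9 for S100a9 and 5.08 to 1247 for S100a8. These intervals cover counting error only. Without control replicate 3 the ratio of mean RPKM was 17.6 for S100a8.

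The neutrophil genes did not share 1 order among the controls. There were 138, 125 and 340 S100a9 reads per 100 Ngp reads in control replicates 1 to 3, so control replicate 3 differed from the other controls for S100a9, S100a8 and Lcn2 and not for Ngp. The calprotectin chains kept closer to each other, with 11.1, 8.33 and 11.1 S100a8 reads per 100 S100a9 reads in the controls.

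A wider list of 28 neutrophil genes, 26 of them in the table, was read in the same way. None of the 26 met the 1 RPKM condition. Their summed level was 3.86 to 11.2 RPKM in the controls and 2.24 to 2.84 RPKM with fibrinogen. In 8 of 26 every control was above every fibrinogen library, an order shown by 12.3% of all rows, and in 1, Prtn3, the reverse held, as in 11.2% of all rows. Control replicate 3 was the highest control for 18. Of the 19 genes with at least 10 reads, limma-voom called 0, while 9 had an unadjusted p under 0.05. Limma without a filter also called 0 of the 26, with 8 under an unadjusted 0.05. Both of these unadjusted counts include Prtn3, which was higher with fibrinogen. The share of all genes under an unadjusted 0.05 is not given here, so these counts have no background. The limma-voom median log2 change of the 19 was -2.52, against -0.02 over all genes tested. Several of the 19, such as Ltf, Mmp8, Retnlg and Trem1, met the condition of 10 reads only through the controls. That condition favours genes that are lower with fibrinogen, so the 2 medians are descriptions and cannot be weighed against each other.

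The 3 most abundant of that list were Csf3r, the receptor for the neutrophil growth factor G-CSF, Fpr1, a receptor for bacterial formyl peptides, and Prtn3, a granule protease. Fpr1 was at 0.474, 0.754 and 1.13 RPKM in the controls and 0.124, 0.306 and 0.257 RPKM with fibrinogen (limma-voom log2 change -1.73, adjusted p = 0.0700). Csf3r overlapped between groups, at 0.656 ± 0.111 and 0.734 ± 0.0337 RPKM, and Prtn3 was at 0.322 ± 0.0426 and 0.542 ± 0.0289 RPKM (adjusted p = 0.195).

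Other genes were chosen after their values were seen, for how they divide the controls. Mmp8, a granule collagenase, had 4, 8 and 96 reads in the controls and 4, 0 and 0 with fibrinogen, and Trem1, an activating receptor, had 2, 2 and 44 reads against 0 in each fibrinogen library. Retnlg, a secreted neutrophil factor, had 2, 2 and 23 reads against 0 in each. All were mostly reads of control replicate 3. Ltf, which encodes the granule protein lactoferrin, ran the other way, with 48, 46 and 2 reads in the controls and 0, 0 and 4 with fibrinogen. Elane, the elastase made by neutrophil precursors, had 1 read in all 6 libraries.

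**Figure D4:**
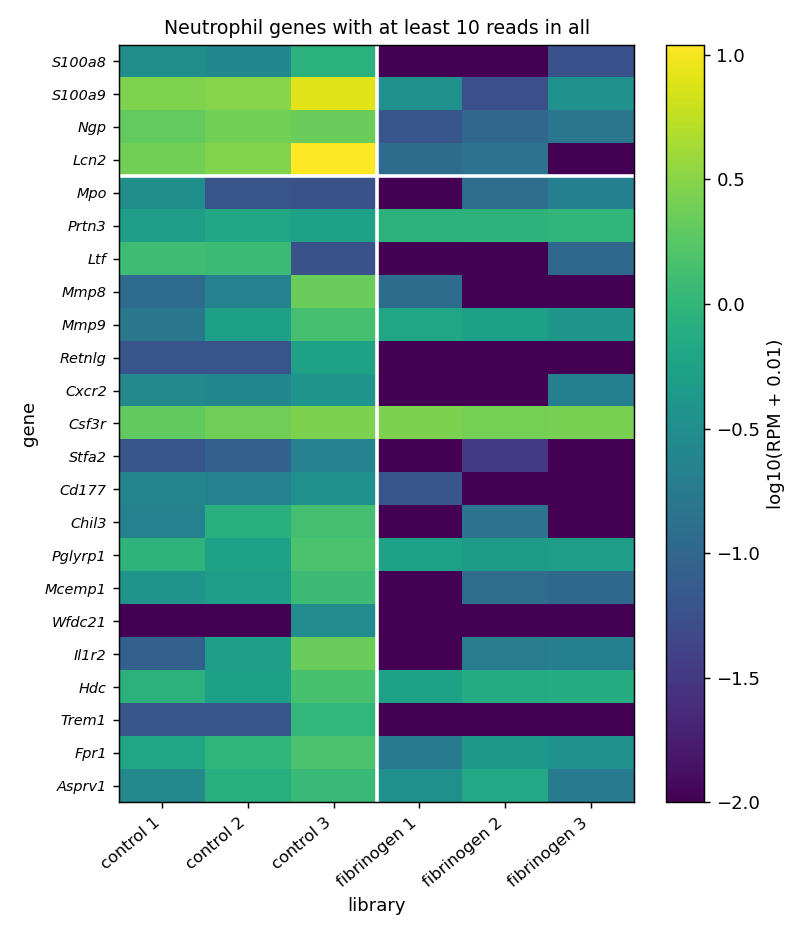
RPM on a log10 scale (0.01 added) in each library for the 4 neutrophil genes of the main set (above the white line) and the 19 other neutrophil genes (below it) that had at least 10 reads in all; the vertical line parts controls from fibrinogen. Most rows are darker on the right, but some, among them Csf3r, Prtn3, Mmp9, Mpo and Hdc, are not clearly so. Control replicate 3 is brightest for Mmp8, Trem1 and Lcn2 but dark for Ltf.

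Other red cell genes were scarce in both groups. Of 14 genes for the red cell membrane and erythroid factors, 9 had under 10 reads over the 6 libraries. Gata1, the master factor of the erythroid lineage, was at 0 in all, and Slc4a1, the band 3 anion exchanger, had 11 reads. Epor, the erythropoietin receptor, was the only one of them tested in the main fit, at 1.78 ± 0.474 and 1.04 ± 0.377 RPKM (adjusted p = 0.158). The embryonic alpha-type globin Hba-x was at 0 throughout.

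Among heme synthesis enzymes that every cell uses, Fech, which inserts iron into the ring, was the most abundant, at 14.9 ± 0.605 and 13.6 ± 0.729 RPKM (adjusted p = 0.303, limma). Alas1, the form of the first enzyme found in all tissues, was at 6.75 ± 0.376 and 6.71 ± 0.339 RPKM (adjusted p = 0.960, limma). Of 8 genes that clear hemoglobin and heme, 4 were tested and 0 were called in the main limma fit, with 1 at an unadjusted p under 0.05, while limma-voom called 1 of 8. The most abundant was Hmox2, the heme oxygenase form made without induction, at 45.5 ± 3.29 and 41.1 ± 4.14 RPKM.

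Markers of other blood cells were read beside the neutrophil genes. The 9 monocyte genes summed to 3.29 to 4.50 RPKM in the controls and 1.69 to 2.28 with fibrinogen, so every control sum was above every fibrinogen sum. Gene by gene, 1 of the 9 had this order (12.3% of all rows) and 1 had the reverse (11.2%). In the control sums, 2 genes made up most of the level. Itgal, an integrin also carried by lymphocytes, was at 3.79, 3.33 and 0.196 against 0.735, 0.976 and 0.957 RPKM, and F13a1, a clotting factor subunit of monocytes, at 0.346, 0.535 and 2.28 against 0.597, 0.424 and 0.915 RPKM. Neither was called. Ly6c2, a defining monocyte gene chosen after its values were seen, rose from 2, 0 and 2 reads to 23, 24 and 20 (limma-voom adjusted p = 0.0202). The 16 T, NK and B cell genes gave 2.01 to 9.38 RPKM against 3.72 to 6.66, and 0 were called by limma-voom (2 at an unadjusted p under 0.05) or by limma without a filter (1). The 11 platelet genes gave 1.19 to 1.83 RPKM against 1.38 to 1.88. Limma-voom called 1 of them lower (Clec1b, whose reads were all in the controls). Limma without a filter called 0 of them (2 at an unadjusted p under 0.05). What part these cells had in the neutrophil result was not tested.

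The summed level of genes of the acute phase and of activated vessels had the same order of libraries as Lcn2 in the controls. The 13 genes summed to 16.9, 19.2 and 85.5 RPKM in the controls and 8.92, 8.92 and 9.49 RPKM with fibrinogen, 8 of 13 were lower in every fibrinogen library (12.3% of all rows), 5 overlapped between groups, and in 12 of 13 control replicate 3 was the highest control. Serpina3n, a protease inhibitor made by reactive astrocytes, stood at 5.95, 7.39 and 35.4 against 3.14, 2.98 and 3.29 RPKM (adjusted p = 0.110). Saa3, an acute phase apolipoprotein, stood at 0.0602, 0.324 and 23.3 against 0, 0.0691 and 0.0373 RPKM. Cp, the copper-carrying ferroxidase ceruloplasmin, fell with a log2 change of -0.95 ± 0.18 (adjusted p = 0.0204, limma), from 4.33 ± 1.35 to 1.72 ± 0.254 RPKM, and it was the 1 gene called of 5 tested in the main fit. Limma-voom called 4 of the 13 lower, Cp, Lrg1, Osmr and Il1r1, where it called 4.21% of all genes lower. Vcam1, a vessel adhesion protein named after its values were seen, was at 1.25 ± 0.0919 and 1.26 ± 0.0540 RPKM (adjusted p = 0.947, limma).

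Astrocyte genes went both ways. Gfap, the astrocyte intermediate filament gene, was at 75.7, 82.5 and 222 RPKM in the controls and 42.6, 32.3 and 42.4 RPKM with fibrinogen, and was called lower by limma-voom (adjusted p = 0.0216) but not by limma (adjusted p = 0.0503). Aqp4, the water channel of astrocyte endfeet, rose from 16.7 ± 1.90 to 26.8 ± 1.95 RPKM (adjusted p = 0.0116, limma) and was the 1 astrocyte gene of 5 called in the main fit. The 5 astrocyte genes together were at 301 to 426 and 278 to 300 RPKM. In the same main fit Olig1, Olig2 and Sox10 rose among 4 OPC genes tested, 0 of 5 neuron genes were called (1 at an unadjusted p under 0.05, and 0 called by limma-voom), and of 6 microglia genes 1, Cx3cr1, rose. The part of astrocytes or vessels in the levels of Lcn2 and S100a9 was not tested. Endothelial genes went both ways too. The vessel receptor Tek rose (log2 change 0.70 ± 0.15, adjusted p = 0.0305, limma), the 1 endothelial gene called of 10 tested in the main fit. Pecam1, an adhesion protein of endothelium also named after its values were seen, was at 4.19 ± 0.705 and 2.90 ± 0.258 RPKM and was called lower by limma-voom (log2 change -0.53, adjusted p = 0.0394) but not by limma (adjusted p = 0.0653). Itm2a, Abcb1a and Cldn5, the most abundant of that list, were not called.

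Relatives and receptors of the neutrophil proteins gave no called change in the main fit, where only 1 of the 5 receptors was tested. In the S100 family, whose members bind calcium, 8 of 12 other genes were tested and 0 were called by limma (3 at an unadjusted p under 0.05) or by limma-voom (1). S100a1 was at 110.9 ± 1.13 and 101 ± 8.34 RPKM, and S100b, the glial form, at 39.4 ± 7.29 and 48.7 ± 7.17 RPKM, both far above S100a8 and S100a9 per length. Slc22a17, the brain receptor for lipocalin 2, was at 31.6 ± 2.61 and 30.6 ± 2.01 RPKM (adjusted p = 0.787), while Ager and Cd36, receptors that bind calprotectin, were under 1 RPKM in every library. Limma-voom called 0 of the 5 receptors. It gave 2 of them, Ager and Tlr4, an unadjusted p under 0.05, both lower with fibrinogen.

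Last, genes were ranked by how closely their log2(RPKM + 1) values, less their own mean, followed those of S100a9 over the 6 libraries. Among 11970 genes compared, the closest 5 by root mean square difference were Rpl21-ps8 (0.298), Plin4 (0.305), Maff (0.396), Ctla2a (0.399) and Snord37 (0.458), where S100a9 itself departed from its mean by 1.40. Plin4, a lipid droplet coat protein, stood at 5.89, 4.37 and 9.65 RPKM in the controls and 0.151, 0.199 and 0.105 RPKM with fibrinogen. Only genes that met the main filter were compared, and Plin4, Rpl21-ps8 and Maff met it only through the controls. Rpl21-ps8 is a ribosomal protein pseudogene and Snord37 a small nucleolar RNA, and their values are uncertain because reads can also come from parent or host genes.

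The 5 genes closest to Hbb-bs were Ecscr (0.165), Tmem176b (0.170), Nupr1 (0.187), Srgn (0.189) and Tmem132d (0.192), where Hbb-bs departed from its mean by 0.408. Ecscr, a surface protein of endothelium, stood at 1.53, 2.21 and 4.29 RPKM in the controls and 1.70, 1.46 and 1.66 RPKM with fibrinogen. Control replicate 3 was the highest library for each of these 5 genes, and none of them was called. Both follow from choosing genes by their likeness to Hbb-bs and are no separate result.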

How the data were processed

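Counts of reads per gene were turned by the authors into RPKM and deposited as 1 table. Per the labels, the libraries were stranded mRNA libraries from TRIzol RNA, and the processing notes name Trimmomatic 0.39, STAR 2.7.6a, featureCounts 1.5.1, edgeR 3.12.1 and GRCm38 (mm10), whereas the methods of the study give a different STAR release and mouse build. The strand setting was not given in the sources used here. Groups came from the sample titles.

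Reads were recovered as RPKM times gene length, and 100% of values above 0 were whole within 0.001 reads. Names turned into dates filled 26 rows, which were never named. The test was limma 3.58.1 (R 4.3.3) with a trended prior variance on log2(RPKM + 1), two-sided, over genes that reached 1 RPKM in 3 or more of 6 libraries. P-values were adjusted by Benjamini-Hochberg and called under 0.05. Genes under the filter were read from the same fit without it and from limma-voom on recovered reads (at least 10 over all libraries). A gene tested alone, 3 against 3, cannot go below an exact permutation p of 0.10, so such tests were not used. The fits were tested on simulated reads.

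The members and 18 lists (177 genes, 168 in the table) were chosen with earlier results of these data known. Named genes were all members, the 3 most abundant and up to 4 called genes of each list, and the 5 nearest profiles of S100a9 and of Hbb-bs, leaving out predicted genes; exceptions, and genes named because a count was 5 or fewer, were chosen after their values were seen. Hbb-bh1, Hbb-y, Ahsp, Ly6g and other listed genes without a row were not analysed here. Results of some listed genes are not reported here.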

Additional observations from a re-analysis of the deposited data

How the results depend on the processing

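S100a9 passed the test under each of its 16 alternatives (adjusted p 0.00151 to 0.0337) and Ngp under each of its 15 (0.000383 to 0.0135), both lower with fibrinogen throughout, and 2 or 3 of the 10 genes were called under every alternative. S100a8 passed under 3 of 14 (limma-voom, a pseudocount of 0.1 RPKM and without control replicate 3) and Lcn2 under 3 of 15 (a mean of at least 1 RPKM, a pseudocount of 0.1 RPKM and without control replicate 3), with adjusted p of 0.0359 to 0.320 and 0.0171 to 0.293 over the alternatives. For S100a9 and Ngp, most of these alternatives kept the main filter, which both met only through the controls. Without the filter the adjusted p was 0.0298 for S100a9 and 0.00371 for Ngp (limma). Most alternatives of S100a8 and Lcn2 had no filter, so their passes cannot be compared with those of S100a9 and Ngp. Lcn2 met the mean of 1 RPKM, and S100a8 the limma-voom condition, only through the controls. The erythroid genes passed under none of their alternatives. Near 0, the sign of 2 of them turned: Hba-a1 to -0.10 without control replicate 1, -0.12 without control replicate 2 and -0.08 without fibrinogen replicate 1 (up to 0.25 without control replicate 3), and Hba-a2 to -0.10 without control replicate 2 and -0.00067 without fibrinogen replicate 3 (up to 0.17 without control replicate 3). Over the whole table, 1689 genes were called, 863 higher and 826 lower, against 935 (447 higher, 488 lower) with no filter, 4041 (2007 and 2034) with array weights, and 466 to 2300 (216 to 1182 higher, 248 to 1118 lower) when 1 library was left out. The count was 466 without control replicate 1, 693 without control replicate 2, 2300 without control replicate 3, and 494, 948 and 576 without fibrinogen replicates 1, 2 and 3. The cause of the larger count with array weights was not tested. Between groups, samples share a replicate number in the titles and a mouse number in the column names. Deviations of same-numbered libraries correlated at 0.06, -0.24 and -0.07, and 0 of 6 libraries were closest to their own number. With so few libraries per group, these values cannot decide whether same-numbered libraries were paired. With the replicate number as a block, 600 genes were called (284 higher, 316 lower) and the same 2 members, S100a9 and Ngp. Depth limits Camp, Hba-a2, Hbb-bt and the fibrinogen values of S100a8, S100a9, Ngp and Lcn2, which rest on 0 to 28 reads per library. The fibrinogen libraries held 12, 2 and 14 reads of S100a9 and 2, 4 and 6 reads of Ngp.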

Other observations

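The B cell light chain gene Igkc, read only as an accompanying blood marker, stood at 3.24, 4.67 and 0.0880 RPKM in control replicates 1 to 3 and at 0.615, 0 and 0.456 RPKM with fibrinogen. Control replicate 3 was thus the lowest control for Igkc, Itgal and Ltf and the highest for Saa3, Mmp8 and Trem1. The heavy chain gene Ighm also had its lowest control in replicate 3, at 1.72, 1.59 and 1.04 RPKM in the controls. With fibrinogen it stood at 3.34, 2.17 and 1.66 RPKM, and the groups overlapped.

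The vessel adhesion receptor Sele, to which neutrophils bind, had 6, 2 and 34 reads in the controls and 0 in each fibrinogen library, and Selp, its relative on platelets and endothelium, had 0, 0 and 32 reads against 2, 0 and 0. Neither passed limma-voom (adjusted p = 0.114 and 0.696). Cd163, the scavenger receptor for hemoglobin on macrophages, rose by limma-voom (log2 change 1.44, adjusted p = 0.0473) and did not pass limma without a filter (adjusted p = 0.127). These genes were chosen after their values were seen.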
